A study of Saccharomyces cerevisiae with 25 samples.

Results

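Baker's yeast with raised expression of PHO90, which encodes a low-affinity transporter of phosphate, was followed through the first 45 min after removal of phosphate. The level of every gene in the 15, 30 and 45 min libraries was set against its level in the single high-phosphate library at 0 min. All cells were of the laboratory strain BY4741 and carried the same 2 alterations, a YFP reporter under the PHO84 promoter (pho84pr-YFP) and PHO90 overexpression (pho90_OX). The 0 min group was 1 library of cells in high phosphate medium, and the other group was 3 libraries, 1 each at 15, 30 and 45 min after cells had been washed and moved to medium without phosphate. These are 4 of the 25 libraries of the course. Both groups carried the overexpression, so what it does by itself is not measured here. Which promoter drives it was not given in the sources used. No mock transfer to fresh high-phosphate medium is among the libraries analysed here, so washing, a change of medium and the absence of phosphate cannot be told apart.

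The table named 6650 genes, of which 4981 had a value in any of the 4 libraries and 3409 in all 4. These 3409 genes were compared. Levels are log2 RPM, the log2 of reads per 1000000 reads in listed genes, and a difference is the mean of the 3 libraries minus 0 min on that scale. All 3 libraries lay on the same side of 0 min for 2282 genes, and on both sides for 1127. A gene was called where all 3 lay on the same side and the mean difference was at least 2-fold (a log2 difference of 1). This is a description and not a test, because 0 min was 1 library and the other 3 were successive times. Library depth was 974855 reads at 0 min, 450744 at 15 min, 1239525 at 30 min and 1241915 at 45 min. No gene was listed under 15 reads, so the lowest level that could be seen was 3.94 at 0 min, 5.06 at 15 min, 3.60 at 30 min and 3.59 at 45 min. The shallow 15 min library listed 3453 genes against 4421, 4810 and 4798 in the others, and 906 genes were listed in the other 3 but not in it. All 6 markers of mating type a were listed in all 4 libraries. Of the 4 alpha markers, MF(ALPHA)1 and MF(ALPHA)2 were listed in none of the 4, SAG1 only at 45 min, and STE3 in all 4 at 4.01 to 5.24. Of the loci that BY4741 lacks, HIS3, LEU2 and MET17 were listed in none of the 4 and URA3 only at 45 min, with 16 reads.

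When phosphate runs short in yeast, the cyclin-dependent kinase Pho85 is held in check by Pho81, and the transcription factor Pho4 stays in the nucleus and switches on the PHO genes, which encode phosphate transporters, secreted phosphatases and the polyphosphate polymerase. Yeast cells also answer many sudden changes of medium with a general programme in which genes for making ribosomes are turned down and genes bound by the stress factors Msn2 and Msn4 are turned up. Multidrug transporter genes are under the factors Pdr1 and Pdr3, and iron uptake genes under Aft1.

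The stretches of 120 bases below lie upstream of 10 called genes from the main groups of differences and of PHO5, a PHO gene that was not called; they were read from the R64 reference genome and printed 5′ to 3′ on the strand of the gene. Capitals mark letters that match the motif searched for that group on either strand. The first 4 genes belong to the PHO regulon, and the capitals are matches to CACGTG or CACGTT, the stronger and weaker core letters bound by Pho4. The PHO84 stretch overlaps the annotated features YNCM0001W and YML122C.
PHO84 (chrXIII:26163-26282, minus strand): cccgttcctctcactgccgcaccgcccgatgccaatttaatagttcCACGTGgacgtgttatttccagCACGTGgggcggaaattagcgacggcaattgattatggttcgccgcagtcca
VTC4 (chrX:413499-413618, minus strand): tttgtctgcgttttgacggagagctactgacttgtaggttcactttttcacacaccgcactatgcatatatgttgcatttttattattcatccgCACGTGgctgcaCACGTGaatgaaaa
SPL2 (chrVIII:375399-375518, minus strand): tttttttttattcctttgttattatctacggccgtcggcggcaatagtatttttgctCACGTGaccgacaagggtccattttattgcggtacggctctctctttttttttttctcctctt
PHO5 (chrII:431197-431316, minus strand): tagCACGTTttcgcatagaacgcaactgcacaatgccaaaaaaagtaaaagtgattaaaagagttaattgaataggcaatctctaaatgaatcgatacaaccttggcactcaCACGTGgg
PDR5 and PDR15 encode drug transporters, and the capitals are matches to TCCGCGG, the core of the pleiotropic drug response element. TCCGCGGA is a match on each strand in the same place.
PDR5 (chrXV:619471-619590, plus strand): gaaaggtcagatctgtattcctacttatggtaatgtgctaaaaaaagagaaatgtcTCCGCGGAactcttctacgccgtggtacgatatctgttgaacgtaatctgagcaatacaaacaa
PDR15 (chrIV:1278743-1278862, plus strand): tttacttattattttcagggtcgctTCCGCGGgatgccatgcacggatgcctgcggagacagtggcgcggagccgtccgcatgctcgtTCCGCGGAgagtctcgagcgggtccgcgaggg
HSP42 encodes a small heat shock protein, and the capitals are matches to AGGGG, the stress response element of Msn2 and Msn4, and to TTCNNGAA, the core of a heat shock element.
HSP42 (chrIV:806351-806470, plus strand): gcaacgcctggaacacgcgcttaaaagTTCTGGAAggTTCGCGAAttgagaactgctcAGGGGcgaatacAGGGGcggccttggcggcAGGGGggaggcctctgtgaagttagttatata
DBP2 and NSR1 take part in making ribosomes, and the capitals are matches to GATGAG, the PAC motif, and AAAATTT, the core of the RRPE motif. AAAATTTT holds overlapping matches to AAAATTT, 1 on each strand.
DBP2 (chrXIV:413403-413522, plus strand): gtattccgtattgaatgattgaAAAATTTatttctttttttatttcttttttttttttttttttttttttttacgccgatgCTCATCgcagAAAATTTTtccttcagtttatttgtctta
NSR1 (chrVII:807781-807900, minus strand): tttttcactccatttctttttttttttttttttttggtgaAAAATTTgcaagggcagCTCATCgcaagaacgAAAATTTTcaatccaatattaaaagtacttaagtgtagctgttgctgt
FTR1 and FET3 encode the high-affinity iron uptake complex, and the capitals are matches to GCACCC, the core bound by Aft1.
FTR1 (chrV:462043-462162, minus strand): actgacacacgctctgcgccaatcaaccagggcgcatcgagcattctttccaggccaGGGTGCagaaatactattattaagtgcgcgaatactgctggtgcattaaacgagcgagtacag
FET3 (chrXIII:388385-388504, plus strand): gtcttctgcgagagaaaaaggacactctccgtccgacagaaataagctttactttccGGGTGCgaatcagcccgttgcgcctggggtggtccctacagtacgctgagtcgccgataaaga

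These motifs were counted in the 500 bases before the start codon of 3348 compared genes. CACGTG was found before 7.02% of all of them and before 16 of the 19 PHO regulon genes compared (84.2%). CACGTT was found before 16.5% of all and 63.2% of the PHO genes. GATGAG was found before 28.6% of all and 93.1% of 101 ribosome biogenesis genes, and AAAATTT before 37.1% and 98.0%. AGGGG was found before 34.9% of all, 66.5% of the 167 called higher genes counted and all 30 stress protection genes. TTCNNGAA was found before 21.7% of all and 73.9% of 23 chaperone genes, and GCACCC before 7.11% of all and 9 of 10 iron uptake genes. TCCGCGG, searched after the multidrug genes had been seen among the largest differences, was found before 2.0% of all and 4 of 10 multidrug genes. A match describes letters only, and binding was not measured.

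After transfer 172 genes were called higher, 5.05% of those compared, and 34 were called lower, 0.997%. All 3 libraries lay above 0 min for 1463 genes (42.9%) and below it for 819 (24.0%). The list medians of stress protection (1.22), reserve carbohydrates (0.97) and the PHO regulon (0.91) lay above that of all genes (0.14), and those of ribosome biogenesis (-0.77) and RNA polymerases I and III (-0.64) below it, as the plot of list medians shows. Of the members compared, 21 of 30 stress protection genes, 5 of 10 reserve carbohydrate genes and 17 of 19 PHO regulon genes were at or above the 15 min floor at 0 min; the others entered the comparison only by being higher at 15 min. Outside the gene lists, leaving aside a multidrug list added after values were seen, lay 104 of the 172 higher and 11 of the 34 lower genes. The 6 multidrug genes called higher are among the 104. The median gene was 0.14 higher (0.21 at 15 min, 0.11 at 30 min and 0.09 at 45 min), while ribosomal protein genes took a smaller share of reads. That median was 0.08 among genes at or above the 15 min floor at 0 min, and 0.07 without the 15 min library. Of the calls 83.5% were higher. After centring of every library on its own median 127 genes were called higher and 68 lower (65.1% higher), and after scaling to the reads that lay outside ribosomal protein genes 111 and 93 (54.4% higher).

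**Figure D1:**
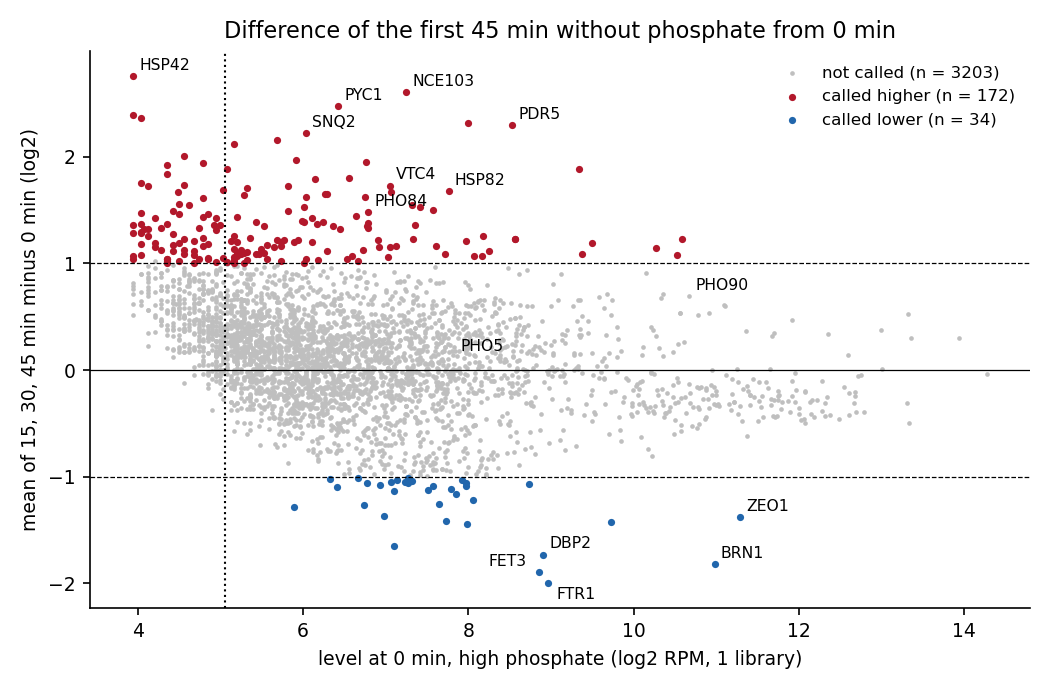
Mean log2 difference of the 15, 30 and 45 min libraries from 0 min (vertical axis) against the level at 0 min in log2 RPM (horizontal axis), 1 point for each of the 3409 genes compared. Dashed lines mark a 2-fold difference and the dotted line the lowest level that could be seen at 15 min, 5.06. Left of the dotted line genes are called higher only.

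Counting error and the floor at 15 min set how these calls can be read. The exact 95% interval of the pooled reads of the 3 libraries against 0 min lay clear of no difference for all 206 called genes, an interval that covers counting error only. Of the 172 higher genes 99 had fewer than 50 reads at 0 min. A gene under 5.06 at 0 min could enter the comparison only by being at or above that level at 15 min: 448 of the 1241 listed genes under it did, and 67 of them were called higher. Among the 2961 genes at or above it at 0 min, a split chosen after seeing the data, 105 were called higher (3.55%) and 34 lower (1.15%). The SD of a gene over the 3 libraries had a median of 0.21 (log2), against 0.18 from counting alone, and 0.31 among the called genes. With the 3350 genes that had a value split into 4 groups of like size by GC content, from the lowest to the highest, 14, 38, 51 and 64 genes were called higher, and the part of GC content in the result was not tested. With limma, which treats the lone 0 min library as varying like the others, 108 genes were higher and 16 lower by at least 2-fold at an adjusted p under 0.05. All 124 were among the calls above. Because limma used the same mean difference and the same limit, this overlap was largely set in advance. P-values given from limma rest on the spread among the 3 later libraries, which are successive times of 1 course. That spread therefore includes change over time. The lone 0 min library adds nothing to it, so variation at 0 min was not measured. Nothing in the labels points to separate cultures.

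Among called genes with a mean of at least 50 reads the largest difference was that of HSP42, which stood at the floor at 0 min. Its level was 3.94 at 0 min (15 reads) and 6.96, 6.59 and 6.56 at 15, 30 and 45 min. All 3 later libraries lay above 0 min, a difference of 2.76 ± 0.22 (SD over the 3 libraries, also below). It lay under the 15 min floor at 0 min and so entered the comparison only by being higher at 15 min, and no p is given for it. The pooled ratio was 6.47 with a counting interval of 3.86 to 11.7. NCE103, the carbonic anhydrase gene (YNL036W, chrXIV:559814-560479), was at 7.25 at 0 min and at 10.22, 9.92 and 9.42 afterwards. It was 6.08-fold higher (2.61 ± 0.41, limma adjusted p = 2.64e-05). PYC1, a pyruvate carboxylase gene (YGL062W, chrVII:385196-388732), was at 6.43 at 0 min and at 8.62, 9.11 and 8.98 afterwards, 5.55-fold higher. Carbonic anhydrase makes the bicarbonate that pyruvate carboxylase uses. NCE103 was highest at 15 min and PYC1 at 30 min.

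Drug efflux and detoxification genes were among the largest differences. They were grouped into a list of 15 after their values had been seen, so the counts of this list describe it and support nothing. PDR5, which encodes the main multidrug transporter of the plasma membrane (YOR153W, chrXV:619840-624375), was at 8.53 at 0 min and at 10.94, 10.91 and 10.63 afterwards. It was 4.92-fold higher (2.30 ± 0.17, limma adjusted p = 1.51e-05, the smallest of any gene), and rested on 360 reads at 0 min and 887 to 2387 later. SNQ2, another transporter of the same family, was at 6.04 and then at 8.84, 8.10 and 7.83, 4.66-fold higher. YOR1, a transporter gene of the oligomycin resistance type, was at 5.92 and then at 8.43, 7.83 and 7.42, 3.92-fold higher. All 3 transporter genes were highest at 15 min and lower at each later step. Of the 10 list members compared 6 were called higher and 0 lower, where 5.05% of all genes were called higher. The other called members, ATR1, PDR16 and PDR15, differed by 1.20, 1.16 and 1.13. The share of all reads that fell in the list was 0.10% at 0 min, 0.39% at 15 min, 0.33% at 30 min and 0.27% at 45 min. Without the 15 min library 4 of the members were called. GRE2, a methylglyoxal reductase gene, was at 8.0 and then at 10.45, 10.47 and 10.02, 4.99-fold higher. RTC3, YJL133C-A and YPR036W-A, for which no role is given here, and the vitamin B6 gene SNZ1 differed by 2.12, 2.16, 1.95 and 2.0. SNZ1, at 4.56 at 0 min, was under the 15 min floor there. PDR1, one of the factors of this group, was at 5.08 at 0 min and at 5.06, 5.42 and 5.77 afterwards and was not called; PDR3 was listed only at 30 and 45 min, with 20 and 15 reads.

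**Figure D2:**
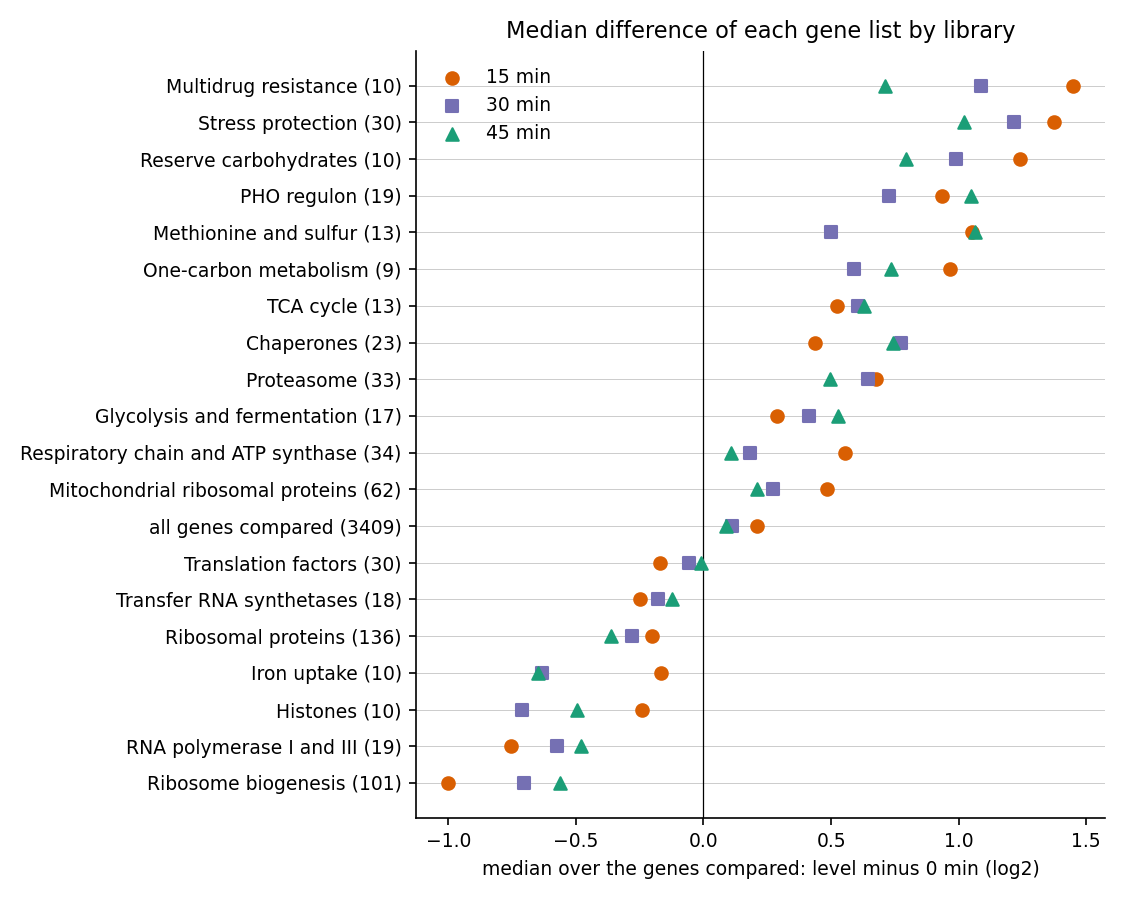
Median log2 difference from 0 min over the genes of each list (number compared in parentheses), 1 marker for each of the 15, 30 and 45 min libraries. The stress protection median lay at 1.37, 1.22 and 1.02 and the ribosome biogenesis median at -1.0, -0.70 and -0.56 at the 3 times, against 0.21, 0.11 and 0.09 for all genes compared.

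The PHO regulon was higher from 15 min on. Of 22 genes listed, 19 were compared, and all 19 lay above 0 min in all 3 libraries (42.9% of all genes did). Of the 19, 7 were called higher, where 5.05% of all genes were, and 0 lower. The median difference was 0.91 against 0.14 for all genes. Of the 17 members at or above the 15 min floor at 0 min, 7 were called. PHO89 and GDE1 lay under it there, so for them lying above at 15 min was set by the filter. The PHO genes held 0.23% of reads at 0 min, 0.41% at 15 and 30 min and 0.59% at 45 min. VTC4 and VTC3, subunits of the vacuolar transporter chaperone complex that makes polyphosphate, had the largest differences of the list. VTC4, the catalytic subunit (YJL012C, chrX:411234-413399), was at 7.05 at 0 min and at 8.33, 8.70 and 9.30 afterwards. It was 3.31-fold higher (1.73 ± 0.49, limma adjusted p = 0.00320), with a pooled counting interval of 3.10 to 4.49. VTC3 was at 7.57 and then at 8.79, 8.93 and 9.50, 2.84-fold higher. VTC1 and VTC2, of the same complex, differed by 0.96 and 0.39 and fell short of the limit. With scaling that leaves ribosomal protein reads out, 4 PHO genes were called. Without the 30 min library the count was 11, and without the 45 min library it was 4.

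Among the transporter genes PHO84, the high-affinity phosphate transporter (YML123C, chrXIII:24037-25800), was at 6.79 at 0 min and at 7.96, 8.19 and 8.68 afterwards. It was 2.79-fold higher (1.48 ± 0.37, limma adjusted p = 0.00481), and its level was higher at each step. PHO84 overlaps YNCM0001W on the other strand, and whether strand was used in counting was not stated, so reads of the 2 cannot be told apart. SPL2, which encodes a small protein that holds back low-affinity transport, was at 6.17 and then at 7.15, 7.43 and 8.03, 2.59-fold higher. PHO89, the sodium-coupled transporter gene, was at 4.89 and then at 5.90, 5.12 and 5.94. Its libraries all lay above 0 min but between 27 and 76 reads, and the difference of 0.76 was not called.

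The phosphatase genes were less uniform. PHO5, the main secreted acid phosphatase (YBR093C, chrII:429548-430951), was at 7.83 at 0 min and at 8.40, 8.06 and 8.10 afterwards. The difference of 0.36 ± 0.19 was not called (limma adjusted p = 0.445), and relative to the median gene it was 0.22. PHO11 and PHO12 encode secreted acid phosphatases and are near-identical copies, so reads may have been split between them; they were 2.22-fold and 2.09-fold higher. The vacuolar alkaline phosphatase gene PHO8 was 2.01-fold higher, just past the limit, on 37 to 113 reads a library. PHM8, a nucleotide phosphatase gene, differed by 0.91. The polyphosphatase genes DDP1 and PPN1 differed by 0.78 and 0.27, the glycerol phosphatase gene HOR2 by 0.97 and the glycerophosphodiesterase gene GDE1 by 0.76, and none of these was called. PHO86, needed for PHO84 to leave the endoplasmic reticulum, differed by 0.86 and PHM6 by 0.56. GIT1, PHM7 and CTF19 had no value in any of the 4 libraries. PHO3, an acid phosphatase gene that stands next to PHO5 and is known to be regulated by thiamine, went the other way: it was at 7.65 and then at 6.04, 6.49 and 6.64, 2.39-fold lower. The reads of PHO5 and PHO3 were not whole numbers (222.14 and 195.9 at 0 min), so each may share reads with another feature. The plot of phosphate genes shows that the PHO5 level in the 60, 75, 90, 105 and 120 min libraries was 8.60, 8.95, 9.43, 10.17 and 10.46, each above every value of the first 45 min.

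**Figure D3:**
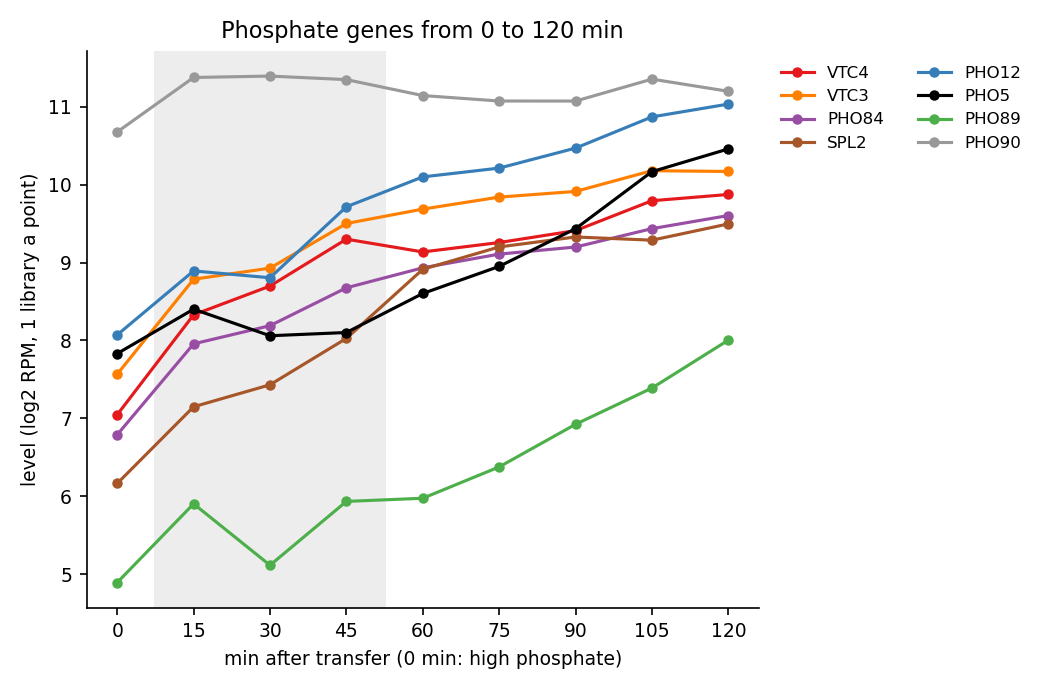
Level in log2 RPM (vertical axis) of 8 phosphate genes from 0 to 120 min (horizontal axis), 1 library a point, with the 15, 30 and 45 min libraries shaded. VTC4, VTC3, PHO84 and SPL2 were higher at each step up to 45 min, while PHO5 was at 8.40, 8.06 and 8.10 in the shaded libraries and at 10.46 at 120 min.

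Genes for low-affinity transporters and for phosphate signalling did not pass the limit: of the 7 compared of 10, 0 were called. In all 3 libraries 3 lay above and 2 below 0 min, as did 42.9% and 24.0% of all genes. At an unadjusted p under 0.05 limma had 1 of the 7 higher and 1 lower, against 718 of all genes compared. PHO90 itself (YJL198W, chrX:60844-63489) was at 10.68 at 0 min, with 1595 reads, and at 11.37, 11.39 and 11.35 afterwards. The 3 later libraries lay close together and above 0 min, a 1.62-fold difference (0.70 ± 0.02, limma adjusted p = 0.0416) below the limit for a call. PHO87 and PHO91, which encode related low-affinity transporters, were far less abundant, PHO87 at 4.94 and then 5.06, 4.69 and 4.77, and PHO91 at 6.19 and then 6.15, 6.26 and 6.46. Both lay on either side of 0 min, but the PHO87 level at 15 min was the floor of 15 reads. PHO87 and PHO85, at 4.94 and 5.04 at 0 min, were under the 15 min floor there. For these genes lying above at 15 min was set by the filter. SYG1, a plasma membrane protein gene of the phosphate exporter family, was at 7.69 and then at 6.32, 6.93 and 7.03, a difference of -0.93. The cyclin-dependent kinase gene PHO85 differed by 0.31 and the inhibitor gene PHO81, itself a PHO regulon member, by 0.83. The transcription factor gene PHO4 had no value at 15 min and stood at 4.21 at 0 min, 5.33 at 30 min and 5.27 at 45 min, from 18, 50 and 48 reads. Its partner PHO2 was also missing at 15 min, and the cyclin gene PHO80 was listed only at 30 and 45 min, at 4.08 and 4.27. The inositol pyrophosphate kinase genes KCS1 and VIP1 differed by -0.20 and 0.47.

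Genes for assembling ribosomes were lower almost throughout. Of 118 ribosome biogenesis genes 101 were compared, 96 lay below 0 min in all 3 libraries (24.0% of all genes did) and none above. The median difference was -0.77 against 0.14 for all genes. Of the 101, 13 were called lower, where 0.997% of all genes were, and 0 higher. The list held 2.52% of reads at 0 min and 1.35%, 1.64% and 1.77% afterwards. DBP2, an RNA helicase gene (YNL112W, chrXIV:413639-416281), was at 8.90 at 0 min and at 6.96, 6.98 and 7.58 afterwards. It was 3.32-fold lower (-1.73 ± 0.35, limma adjusted p = 0.00160). FAF1, needed for making the small subunit, was at 7.10 and then at 5.06, 5.30 and 5.99, and its 15 min level was the floor of 15 reads. PUF6, a factor of the large subunit, was at 7.73 and then at 6.01, 6.51 and 6.42. The other called members were RRP36, SAS10, NMD3, BMS1, NSR1, NOP14, SDA1, NOP13, ENP2 and KRR1, at -1.36 to -1.03.

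The number of biogenesis genes called moved with the libraries used and with the scaling. The count was 6 without the 15 min library, 22 without the 30 min library and 29 without the 45 min library. It was 27 with centred libraries and 38 with ribosomal protein reads left out of the scaling. Of 19 genes of RNA polymerases I and III, which make ribosomal and transfer RNA, 3 were called lower (RPA135, RPA12 and RPA43, -1.11 to -1.01) and 0 higher, with a median of -0.64, where 0.997% of all genes were called lower. The count of 3 was 1 without the 15 min library, 5 without the 45 min library and 6 with either of those scalings.

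Ribosomal protein genes were lower by less. Of 137 genes 136 were compared. Of these 121 lay below 0 min in all 3 libraries and 3 above, where 24.0% and 42.9% of all genes did. The median was -0.30, and 0 were called in either direction. limma called 0 at the 2-fold limit as well; without that limit it had 23 lower and 1 higher at an unadjusted p under 0.05 and 1 lower at an adjusted p under 0.05. The furthest was RPL18B, at 10.22 at 0 min and 9.28, 9.43 and 9.53 afterwards, a difference of -0.80. Because these transcripts are so abundant, their share of reads was 40.1% at 0 min and 35.4%, 32.8% and 31.3% afterwards. Many come as near-identical pairs, which leaves the value of any one copy uncertain. Translation factors (0 of 30 called, median -0.09) and transfer RNA synthetases (0 of 18 called, median -0.22) were closer to no difference.

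Stress protection genes were higher in every library. Of 41 genes 30 were compared, and all 30 lay above 0 min in all 3 libraries, as did 42.9% of all genes. For members under the 15 min floor at 0 min, lying above at 15 min was set by the filter. Of the 30, 21 were called higher, where 5.05% of all genes were, and 0 lower. The median difference was 1.22. These genes held 0.42% of reads at 0 min and 1.23%, 1.10% and 1.02% afterwards. Of the 21 members at or above the 15 min floor at 0 min, 15 were called. HSP12, a membrane-protecting protein gene, was at 9.34 at 0 min and 10.99, 11.27 and 11.41 afterwards. HSP104, the disaggregase gene, was at 7.06 and then at 8.74, 8.76 and 8.69. TMA10 and SPI1 differed by 2.40 and 2.36, but from 15 and 16 reads at 0 min. HSP12 and HSP104 are shown as abundant members after their values had been seen.

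Reserve carbohydrate genes followed with 4 of 10 compared called higher, where 5.05% of all genes were, and 0 lower (median 0.97). All 4 called differences shrank from step to step, as did 51.7% of all genes called higher. TPS2, TPS3 and PGM2, at 4.79, 4.43 and 4.50 at 0 min, were under the 15 min floor there. They entered the comparison only by being higher at 15 min, which favours a large difference at that time. TPS2, trehalose phosphate phosphatase, was at 4.79 and then at 7.03, 6.82 and 6.35, and the trehalose synthase gene TPS1 at 6.10 and then at 7.38, 7.27 and 7.26. TSL1, a subunit of the same complex, had no value at 0 min and stood at 5.90, 5.78 and 6.15 afterwards, at least 4.0-fold above the floor of 15 reads in the 0 min library. Of the 5 reserve carbohydrate members at or above the 15 min floor at 0 min, 1 was called. Without the 45 min library 7 reserve carbohydrate genes were called. Chaperone genes had 3 of 23 called higher, where 5.05% of all genes were, and 5 without the 15 min library. Of the 22 chaperone members at or above the 15 min floor at 0 min, 2 were called. HSP82, an Hsp90 gene, was at 7.76 and then at 8.97, 9.59 and 9.76, 3.19-fold higher. Its value came to 211.82 reads at 0 min, not a whole number, so HSP82 may share reads with another feature. BTN2, a protein-sorting factor gene, was at 5.04 and then at 7.08, 7.17 and 5.92. It lay under the 15 min floor at 0 min and so entered the comparison only by being higher at 15 min. All 33 proteasome genes lay above 0 min in all 3 libraries, as did 42.9% of all genes, with a median of 0.58. Of them 3 were called higher, where 5.05% of all genes were: the polyubiquitin gene UBI4 (2.89-fold), the proteasome transcription factor gene RPN4 (2.71-fold) and RPN12 (2.04-fold).

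Central carbon metabolism was higher in parts. Of 17 genes of glycolysis and fermentation 4 were called higher, where 5.05% of all genes were. They were PYK2, ENO1, TDH1 and TDH2 (1.92, 1.26, 1.22 and 1.08). PYK2, at 4.36 at 0 min, was under the 15 min floor there, and of the 16 members at or above it 3 were called. The read share of the list was 6.82% at 0 min and 7.90%, 8.80% and 10.1% afterwards. ENO1, TDH1 and TDH2 have close paralogs. In the TCA cycle 4 of 13 were called higher, where 5.05% of all genes were. Of the 12 members at or above the 15 min floor at 0 min, 3 were called. ACO1, aconitase, was at 7.33 at 0 min and at 7.42, 8.72 and 9.54 afterwards. IDH1, a subunit of isocitrate dehydrogenase, was at 4.79 and then at 5.15, 6.42 and 7.11. It lay under the 15 min floor at 0 min and so entered the comparison only by being higher at 15 min. IDH2, the other subunit, was at 5.36 and then at 5.85, 6.48 and 7.46. The 3 genes were near 0 min at 15 min and far above it at 45 min, and limma did not call them (adjusted p = 0.617, 0.294 and 0.174), and without the 45 min library 1 of the 13 genes was called. CIT1, citrate synthase, was at 6.01 and then at 7.45, 7.45 and 7.73, without that climb.

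Sulfur and one-carbon genes were mixed. Of 13 methionine and sulfur genes compared 5 were called higher, where 5.05% of all genes were, and 0 lower. In all 3 libraries 10 lay above and 2 below 0 min, as did 42.9% and 24.0% of all genes. The list medians were 1.05, 0.50 and 1.06 at the 3 times. MET14, adenylylsulfate kinase, was at 5.82 and then at 7.44, 6.62 and 7.86, and MET3, ATP sulfurylase, at 4.92 and then at 6.33, 5.76 and 6.74. Of the 10 members at or above the 15 min floor at 0 min, 2 were called. MET3 lay under it there. In one-carbon metabolism SHM2 and GCV2 were called higher of 9, where 5.05% of all genes were. In that list 6 genes lay above and 2 below 0 min in all 3 libraries. Without the 15 min library, or with either other scaling, 1 was called. In purine synthesis ADE17, which encodes an enzyme of the last steps to IMP, was at 6.15 and then at 9.34, 7.45 and 7.0, the largest decline from 15 to 45 min of any called gene with a mean of at least 50 reads. Limma did not call it (adjusted p = 0.530).

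Iron uptake genes were among the lowest. FTR1, the iron permease (YER145C, chrV:460526-461740), was at 8.96 at 0 min and at 6.76, 6.98 and 7.18 afterwards. It was 3.98-fold lower (-1.99 ± 0.21, limma adjusted p = 0.000337), the largest difference in that direction among all called genes. FET3, the multicopper oxidase that works with it, was at 8.85 and then at 6.67, 6.97 and 7.23, 3.71-fold lower. Both were lowest at 15 min and somewhat higher at each later time. Of the 10 iron uptake genes compared 4 were called lower, FRE1 and SIT1 among them, where 0.997% of all genes were. ISU1, an iron-sulfur scaffold gene, was called higher at 1.22, as were 5.05% of all genes. FRE1 rested on few reads, at 5.89 and then at 5.61, 4.01 and 4.21. Without the 30 min library 3 members were called lower.

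Other lower genes lay in no list or singly in one. BRN1, a condensin subunit gene, was at 10.98 and then at 8.79, 9.35 and 9.34, 3.54-fold lower. Its value came to 1969.5 reads at 0 min, not a whole number, so it may share reads with another feature. ADA2, a subunit gene of the SAGA acetyltransferase, was at 9.73 and then at 8.35, 8.32 and 8.25, 2.69-fold lower. ZEO1, a plasma membrane protein gene, was at 11.29 and then at 9.80, 9.78 and 10.16, 2.60-fold lower. The reads of ADA2 and ZEO1 were not whole numbers at 30 min (395.58 and 1091.5), so each may share reads with another feature. AAH1, adenine deaminase, was 2.71-fold, the fatty acid desaturase gene OLE1 2.33-fold and the CTP synthase gene URA7 2.24-fold lower. IPI3, of large subunit processing, differed by -1.27. Of the histone genes 0 of 10 were called, 7 lay below 0 min in all 3 libraries (24.0% of all genes did), and the median was -0.54. The hexose transporter gene HXT2 was at 8.21 and then at 7.28, 7.06 and 7.37, a difference of -0.98 that fell just short of the limit.

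Most called differences were largest at 15 min. Of the 172 higher genes 112 were furthest from 0 min at 15 min, 34 at 30 min and 26 at 45 min. Their median difference was 1.47, 1.29 and 1.11 at the 3 times, and that of all genes compared 0.21, 0.11 and 0.09. Among the 172 the difference shrank at each step for 89 and grew at each step for 15. Of the 172, 67 lay under the 15 min floor at 0 min and entered only by reaching it at 15 min. The filter therefore favours a large 15 min difference for those 67, and the order was not counted without them. Of the 34 lower genes 21 shrank at each step and 1, ADA2, grew, and the medians were -1.53, -1.12 and -0.91. The lists differed in this order. Of the 7 called PHO regulon genes 4 grew (PHO84, SPL2, VTC3 and VTC4) and 0 shrank, while of the 13 called biogenesis genes 11 shrank and 0 grew, and of the 21 stress protection genes 13 shrank and 1, HSP12, grew. NSR1, a nucleolar protein gene, was at 8.73 and then at 7.01, 7.71 and 8.28. RPA135, of RNA polymerase I, was at 7.79 and then at 5.79, 7.0 and 7.23. ALD4, the mitochondrial aldehyde dehydrogenase gene, was at 7.32 and then at 9.49, 8.99 and 8.15. GCY1, a glycerol dehydrogenase gene, and TMA17, a proteasome assembly chaperone gene, were also highest at 15 min and lower at 30 and again at 45 min. TMA17, at 4.84 at 0 min, was under the 15 min floor there. The 15 min library is the shallowest, has the highest floor and is 1 library, so its own part in this order was not tested.

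**Figure D4:**
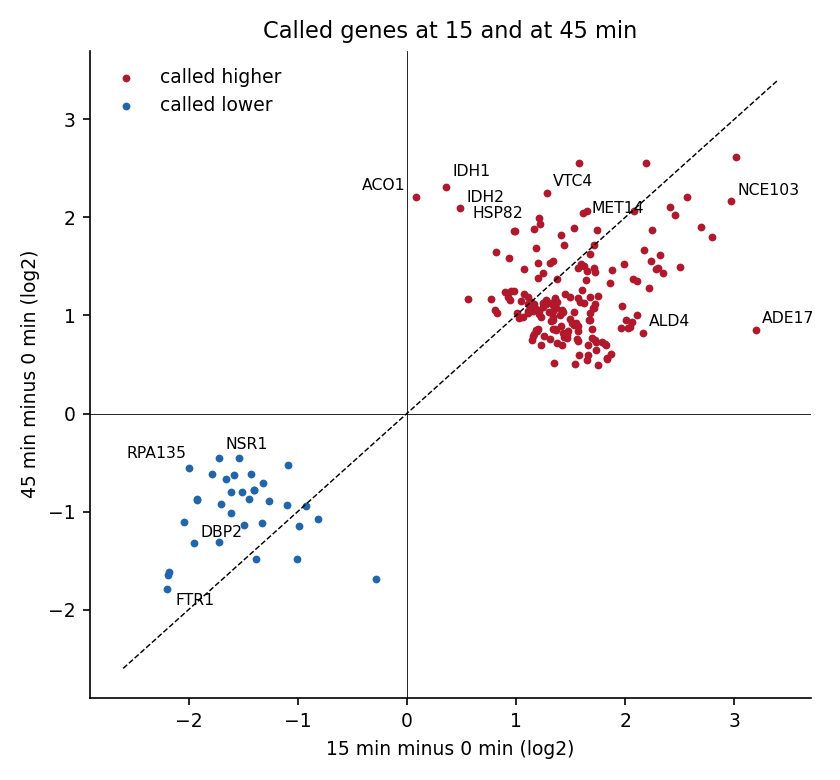
Log2 difference from 0 min at 45 min (vertical axis) against that at 15 min (horizontal axis) for the 172 genes called higher and the 34 called lower, with a dashed line of equal difference. ADE17 lies far right of the line, at 9.34 at 15 min and 7.0 at 45 min (level, log2 RPM), and ACO1, IDH1 and IDH2 lie far above it.

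Genes that crossed the floor entirely were fewer. In 38 cases a gene without a value at 0 min was listed in all 3 later libraries, and for 13 of them the mean lay at least 2-fold above the floor of 15 reads in the 0 min library. BDH2, a gene related to butanediol dehydrogenase, stood at 7.22, 6.40 and 5.21, at least 5.04-fold higher. YKL071W stood at 6.10, 6.59 and 5.84, at least 4.70-fold higher, and CYC7, the second cytochrome c isoform, at 5.67, 5.69 and 5.15, at least 2.95-fold higher. In 25 cases a gene listed at 0 min had no value in the 3 later libraries, and for 0 of them did the bound reach 2-fold. FIG1 was the furthest, at 4.84 at 0 min, and at least 1.70-fold lower. The floors bear on both counts. A gene listed at 15 min was at 5.06 or above, against a floor of 3.94 at 0 min. The 15 min part of the bound for the 38 genes was therefore set by the filter. In the other direction even FIG1 lay under 5.06 at 0 min, so a 2-fold bound was hard to reach. The 13 and the 0 cannot be compared.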

How the data were processed

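Total RNA from 4 time points of 1 course was turned into cDNA and sequenced on an Illumina instrument, according to the labels. The authors aligned with Bowtie against R64, per the submitters' processing notes. The counting tool, its annotation and whether strand was used are not stated in the sources used. The deposited values were taken as log2 RPM because 2 raised to them summed to 1000000 in every library, although the submitters' design text speaks of normalization to the first time point. Genes under 15 reads were missing. Within 0.02 reads, 93.6% to 94.1% of values in the 4 libraries came out whole and the rest were fractional, so no count model was used. Depth was 450744 to 1241915 reads.

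Differences were taken on the deposited log2 scale without a pseudocount. Of 6650 names, 5962 matched the R64 annotation; 51 entries without a name held no value. Calls needed all 3 libraries on the same side and a 2-fold mean. Counting intervals were exact, on pooled reads, at 95%, and cover counting error only. limma 3.58.1 in R 4.3.3 (trend and robust estimation, Benjamini-Hochberg adjustment over 3409 genes, two-sided) was an alternative. The call rule and limma were both tested on simulated data. The naming rule took the 15 largest called differences in each direction with a mean of at least 50 reads, all phosphate genes, up to 3 genes per list, the largest changes from 15 to 45 min and genes that crossed the floor. The text gives a selection of these, and other members of the 40 lists where called. Members and lists were chosen with earlier results of these data known, and 1 list, multidrug resistance, and its motif were added after values were seen. Alternatives changed the scaling, the filter, the pseudocount, the limit, the test or the libraries used. A gene among those the rule gave is not reported here.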

Additional observations from a re-analysis of the deposited data

How the results depend on the processing

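Without one of the 15, 30 and 45 min libraries the number of genes called higher ran from 147 to 211 (172 with all) and lower from 33 to 71 (34). Ribosome biogenesis genes called lower ran from 6 to 29 (13), PHO regulon genes called higher from 4 to 11 (7), and ribosomal protein genes called lower stayed at 0. Centred on the median, 68 genes were lower, 27 of them in ribosome biogenesis. Scaled to reads outside ribosomal protein genes, 111 were higher and 93 lower, with 38 in ribosome biogenesis and 4 in the PHO regulon. A pseudocount of 10 RPM left 108 higher and 21 lower. Pooled reads, which weigh the 15 min library least, left 20 lower, 5 of them in ribosome biogenesis. A 1.5-fold limit gave 568 and 215, and 2-fold in each library 79 and 9. limma called 108 and 16, 7 of the lower in ribosome biogenesis. Genes at or above the 15 min floor at 0 min, an alternative chosen after seeing the data, gave 105 higher. The cause of each shift beyond the alternative's own construction was not tested. No called gene that is named changed sign under the alternatives run. No paired analysis was possible because the labels carry no replicate numbers and 0 min has 1 library. Depth limits genes near 15 reads most, at 15 min above all.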
